A study of Mus musculus with 18 samples.

Results

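The genes encoding the NMDA and AMPA types of ionotropic glutamate receptor were followed through all groups of the series, in mouse cerebella and in cultured cerebellar granule cells. The set comprised 10 genes, *Grin1*, *Grin2a*, *Grin2b*, *Grin2c*, *Grin2d* and *Grin3a* for the NMDA receptor and *Gria1* to *Gria4* for the AMPA receptor. A gene was represented by its brightest transcript cluster, the array's unit of measurement, among those carrying a single gene symbol. By this rule 9 of the 10 genes were measured, out of 22180 genes in all, and *Grin1* had no cluster carrying its symbol alone. Affymetrix Mouse Gene 2.0 ST arrays were used, and all levels are log2 signals.

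The series holds 3 experiments. *Dot1l*-cKO cerebella (n = 3) came from P3 mice of the C57BL6/J background with both *Dot1l* alleles floxed and 1 *Atoh1*-Cre allele, which is active in the granule cell lineage and in other derivatives of the rhombic lip, so that only some of the cells of the tissue lose *Dot1l*. Control cerebella (n = 3) came from P3 mice with floxed *Dot1l* and no Cre, and 1 of them is labelled as homozygous for the floxed allele in its title and as heterozygous in its description. Granule neurons (CGN) of NMRI wild-type mice were grown with serum and received the DOT1L inhibitor SGC0946 (n = 2) or the solvent DMSO (n = 2) for 44 h. Granule neuron progenitors (CGNP) of P7 NMRI wild-type mice were grown with SHH and received SGC0946 (n = 3) or DMSO (n = 3) for 4 h after 1 day in vitro. The 3 CGNP cultures of each treatment derive from 2 mice, 1 culture from each and 1 from both pooled, so they are not 3 independent animals. Of the 6 CGN arrays, 2 were left out, since their titles give one treatment and their descriptions the other. The remaining 4 are labelled with 5 and 7 days in vitro for SGC0946 and with 2 and 4 days for DMSO, and 1 SGC0946 culture is labelled P9 where the others are P7. By these labels, time in culture and treatment cannot be told apart in CGN. The labels disagree with each other, since the descriptions of the same 4 arrays give 1 day in vitro. Over the 6 CGN arrays the labelled days run from 2 to 7 in array order, and the study's methods give all CGN a single schedule.

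Glutamate is the main excitatory transmitter of the cerebellum. AMPA receptors carry its fast current, and inclusion of the GluA2 subunit, encoded by *Gria2*, keeps them nearly impermeable to calcium. NMDA receptors need the obligatory GluN1 subunit (*Grin1*) together with GluN2 or GluN3 subunits. Those of GluN1 and GluN2 admit calcium, and their opening needs glutamate binding while the membrane is depolarized. The GluN2 subunit sets the kinetics of the channel and changes with age. Cerebellar granule cells are known for starting with GluN2B and adding GluN2A and later GluN2C as they mature, whereas GluN2D and GluN3A are typical of young tissue. DOT1L is the methyltransferase for H3K79, and the mark it sets on histone H3 is found along transcribed genes.

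The arrays within an experiment had nearly the same distribution, and the medians of all clusters were 4.98 to 5.00 in cerebella, 4.64 to 4.70 in the CGN compared and 4.73 to 4.80 in CGNP, so levels were set side by side between experiments only as a description. *Dot1l* itself read 9.01 to 9.43 in cKO and 9.05 to 9.13 in control cerebella. The array summarizes the whole transcript, the deletion covers a small part of it in some of the cells, and this reading therefore does not check the genotype. Markers set the preparations apart: *Atoh1*, the transcription factor of granule progenitors, averaged 8.16 in cKO and 8.96 in control cerebella, and *Calb1* of Purkinje cells averaged 11.81 and 11.92 there, against 9.65 in CGN and 6.60 in CGNP with DMSO. *Atoh1* was near the array median in CGNP with DMSO, at 5.26. *Gabra6*, a marker of fully mature granule neurons, averaged 5.50 in CGN and 4.38 in CGNP with DMSO, and *Fat2*, a cadherin of granule cells, 10.17 and 8.94, so that the first was low or near the median in both cultures and the second bright. Markers of mature granule neurons did not all go one way between CGN and CGNP with DMSO. As deposited, 5 of 9 were higher without overlap in CGN and 3 lower, where 13.3% and 51.3% of all genes were. *Slc17a7* (8.64 in CGN and 9.88 in CGNP) and *Cbln1* (9.46 and 10.33) were among the lower. After joint quantile normalization of the 16 arrays 6 were higher and 3 lower, where 26.7% and 29% of all genes were.

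**Figure D1:**
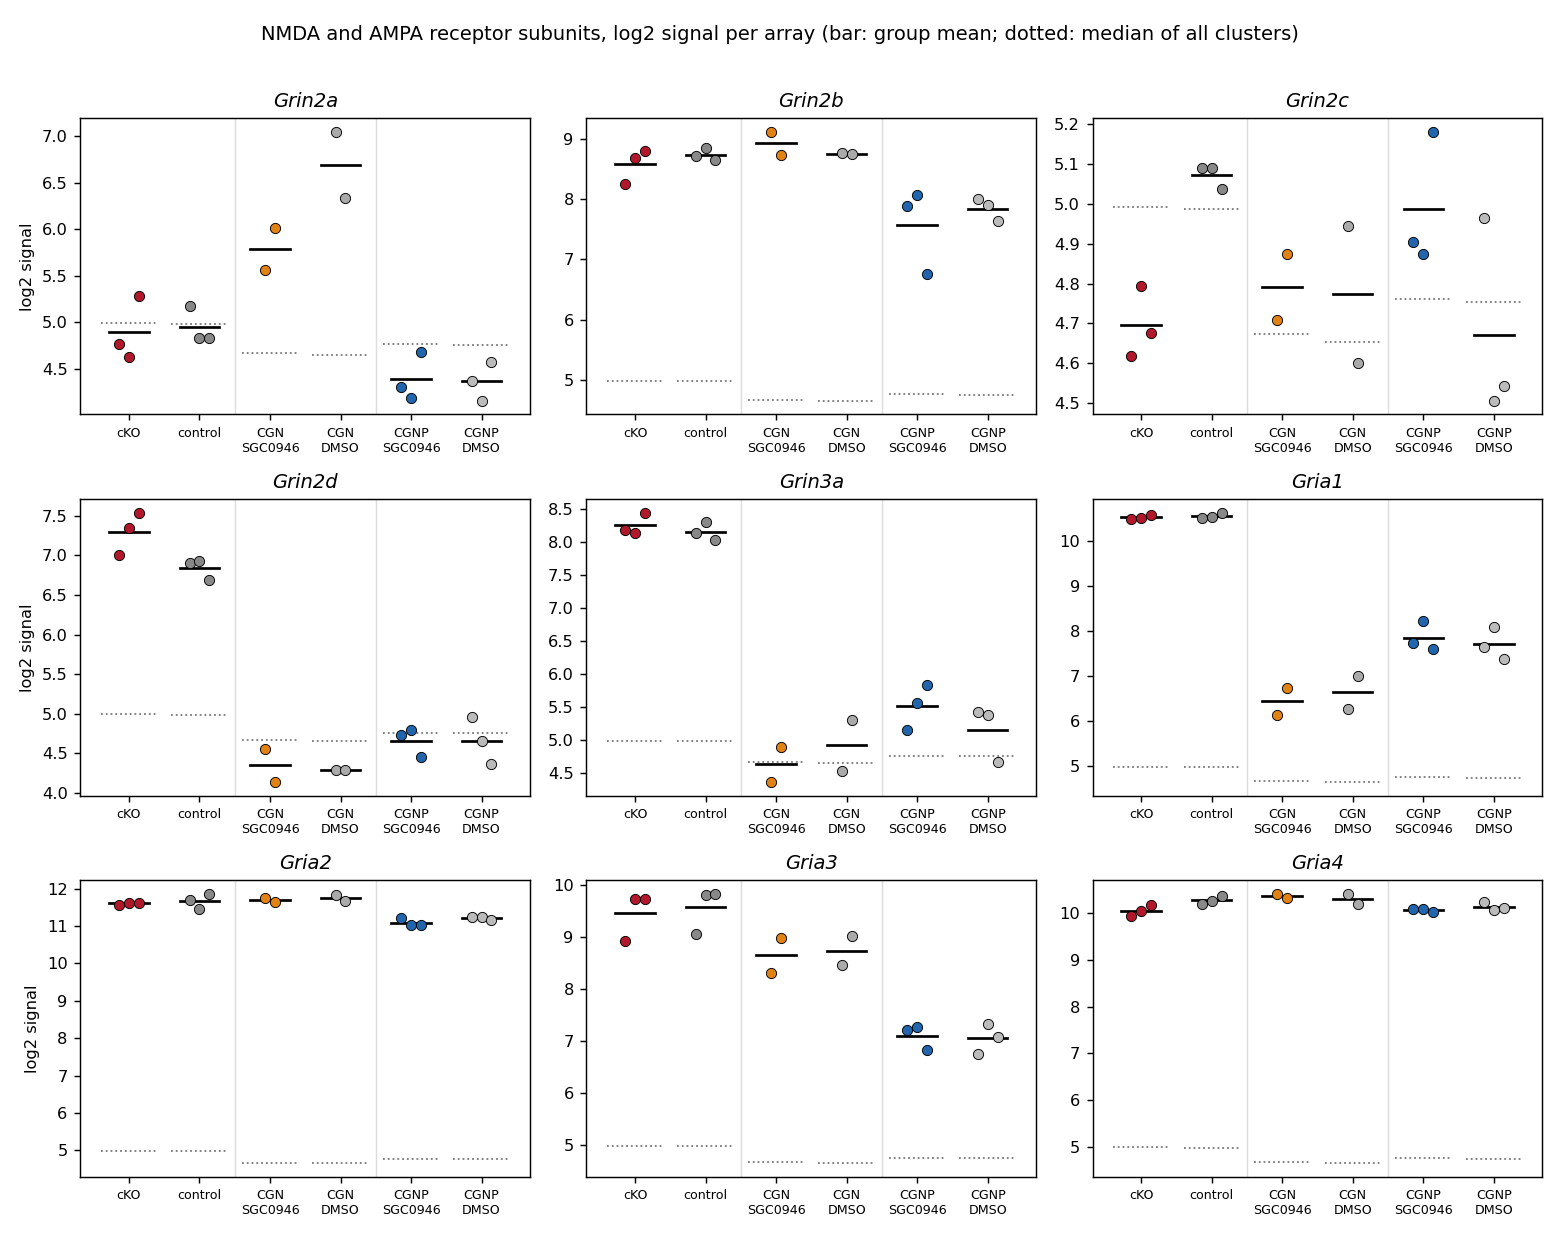
Log2 signal of the 9 measured subunits on each array, by group, with the group mean as a black bar and the median of all clusters as a dotted line. *Grin2d*, *Grin3a* and *Gria1* are higher in cerebella than in both cultures, *Grin2a* is highest in CGN, and *Gria4*, *Grin2c* and *Gria2* have the smallest ranges of group means, 0.32, 0.40 and 0.66 as deposited (0.94, 0.63 and 1.18 after joint quantile normalization of the 16 arrays).

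Among NMDA receptor genes, *Grin2a* had its highest level in CGN. It averaged 5.79 ± 0.32 with SGC0946 and 6.69 ± 0.51 with DMSO in CGN (SD, n = 2 each), 4.90 ± 0.35 in cKO and 4.95 ± 0.20 in control cerebella (SD, n = 3 each), and 4.39 ± 0.26 with SGC0946 and 4.37 ± 0.21 with DMSO in CGNP (SD, n = 3 each). Its arrays overlapped between cKO and control, and between the CGNP treatments, but stood apart between the CGN treatments and between CGN and every other group. On 10 of 16 arrays *Grin2a* lay below the median of all clusters, and all 4 CGN arrays lay above it.

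*Grin2b*, the GluN2 subunit of early granule cells, was well above the array median on all 16 arrays. Its group means were 8.58 ± 0.29 in cKO and 8.74 ± 0.11 in control cerebella (SD, n = 3 each), 8.92 ± 0.28 with SGC0946 and 8.75 ± 0.02 with DMSO in CGN (SD, n = 2 each), and 7.57 ± 0.71 with SGC0946 and 7.84 ± 0.19 with DMSO in CGNP (SD, n = 3 each). The cerebellar and CGN groups overlapped with their neighbours in the order of means and both CGNP groups lay below them, whereas after joint quantile normalization of the 16 arrays CGN stood above control cerebella and cKO cerebella overlapped with CGNP. One CGNP culture with SGC0946, at 6.76, was more than 1 unit below the other two at 7.88 and 8.06.

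*Grin2c* was dim everywhere. Its arrays ranged from 4.51 to 5.18, it was below the array median on 6 of 16 arrays, and every neighbouring pair of groups in the order of its means overlapped as deposited, whereas after joint quantile normalization CGN with SGC0946 stood above control cerebella. For *Grin2b*, *Grin2c* and *Grin2d* a second, unused cluster was below the array median on all 16 arrays.

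*Grin2d* and *Grin3a* read higher in cerebella than in every culture group. Cerebella and cultures also differ in strain and age, and apparently in normalization. *Grin2d* averaged 7.30 ± 0.27 in cKO and 6.84 ± 0.13 in control cerebella (SD, n = 3 each), and between 4.29 and 4.66 in the 4 culture groups, where 8 of 10 arrays were below the array median. *Grin3a* averaged 8.26 ± 0.16 in cKO and 8.16 ± 0.14 in control cerebella (SD, n = 3 each), and between 4.63 and 5.52 in the cultures, whose groups overlapped with their neighbours. Its range of group means, 3.63, was the widest among the NMDA receptor genes.

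Among AMPA receptor genes, *Gria1* differed most between groups, with a range of group means of 4.11. It averaged 10.52 ± 0.05 in cKO and 10.55 ± 0.06 in control cerebella (SD, n = 3 each), 6.44 ± 0.42 with SGC0946 and 6.64 ± 0.53 with DMSO in CGN (SD, n = 2 each), and 7.85 ± 0.32 with SGC0946 and 7.71 ± 0.35 with DMSO in CGNP (SD, n = 3 each). As deposited the 3 preparations did not overlap, while the groups within each did, and after joint quantile normalization CGN overlapped with CGNP under DMSO.

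*Gria3* was highest in cerebella and lowest in CGNP. It averaged 9.46 ± 0.47 in cKO and 9.56 ± 0.44 in control cerebella (SD, n = 3 each), 8.64 ± 0.47 with SGC0946 and 8.74 ± 0.38 with DMSO in CGN (SD, n = 2 each), and 7.10 ± 0.24 with SGC0946 and 7.05 ± 0.28 with DMSO in CGNP (SD, n = 3 each). One cKO cerebellum at 8.92 and 1 control cerebellum at 9.05 lay far below the other 4, which were between 9.73 and 9.82, and the low cKO array overlapped with CGN. CGNP arrays were below all others.

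*Gria2* and *Gria4*, the AMPA receptor genes that granule cells are known to express, were among the bright genes of every array. *Gria2* ranged from 11.02 to 11.86 over the 16 arrays, with its lowest group means in CGNP, 11.09 ± 0.12 with SGC0946 and 11.21 ± 0.05 with DMSO (SD, n = 3 each). *Gria4* ranged from 9.93 to 10.41, and every neighbouring pair of groups in the order of its means overlapped as deposited. After joint quantile normalization, CGN stood above control cerebella for both genes.

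In *Dot1l*-cKO against control cerebella, the question was whether loss of DOT1L under *Atoh1*-Cre went with altered subunit expression. None of the 9 subunits passed the test adjusted over all genes (limma, Benjamini-Hochberg, adjusted p below 0.05), which 5 of 22180 genes did (0.0225%). At the study's cut-off, an unadjusted p of at most 0.05, 3 of 9 subunits were called, *Grin2d* higher and *Grin2c* and *Gria4* lower, where 8.69% of all genes were called (4.09% higher and 4.6% lower). These 3 had arrays that did not overlap between the genotypes, as did 14% of all genes. In whole tissue, fewer cells of a type and less RNA per cell cannot be told apart.

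*Grin2d* encodes a GluN2 subunit known from embryonic and early postnatal brain and from inhibitory interneurons of the cerebellum, and the gene is annotated at chr7:45831883-45871194 (GRCm38.p6). It read 7.0025, 7.35 and 7.54 in cKO cerebella, against 6.90, 6.92 and 6.68 in controls. All 3 cKO arrays were above all 3 control arrays, although the lowest cKO array was close to the highest control. The log2 change was 0.46 with an SE of 0.19, a 1.38-fold difference (limma, adjusted p = 0.519).

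*Grin2c* encodes the GluN2 subunit of mature granule cells and was at the level of the array median here, and the gene is annotated at chr11:115249169-115267297 (GRCm38.p6). It read 4.62, 4.80 and 4.68 in cKO cerebella, against 5.09, 5.09 and 5.04 in controls. The cKO arrays were below the array median and the control arrays above it. The log2 change was -0.37 with an SE of 0.14, a 1.30-fold difference (limma, adjusted p = 0.483).

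*Gria4* encodes GluA4, which in the cerebellum is known from granule cells and Bergmann glia, and the gene is annotated at chr9:4417893-4796234 (GRCm38.p6). It read 9.93, 10.05 and 10.17 in cKO cerebella, against 10.20, 10.26 and 10.37 in controls. The groups met without overlapping, with the highest cKO array next to the lowest control. The log2 change was -0.23 with an SE of 0.10, a 1.17-fold difference (limma, adjusted p = 0.574).

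These 3 calls were lost on leaving out single arrays, in part with nearly the same change fitted to fewer arrays. *Grin2c* missed the cut-off without cKO replicate 1 (-0.34) and without cKO replicate 3 (-0.36), and when both of its clusters were averaged (-0.15). *Grin2d* missed it without cKO replicate 2 (0.44), cKO replicate 3 (0.34) or control replicate 3 (0.39), and with both clusters averaged (0.20). *Gria4* missed it without cKO replicate 1 (-0.17), cKO replicate 2 (-0.23), control replicate 2 (-0.24) or control replicate 3 (-0.18), and after joint quantile normalization of the 16 arrays (-0.21).

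The promoter of *Gria4* is shown because it is the one called subunit whose RefSeq window lay wholly outside the annotated gene. Of the 10 genes, 5 had a window in the RefSeq table, and those of *Grin2c* and *Grin2d* reached into their own genes. The 250 bases before the *Gria4* start are at chr9:4796235-4796484 (GRCm38.p6, minus strand), read 5′ to 3′ on the gene's strand, and the capitals mark a match to the NRF1 palindrome, GCGC followed after any 2 bases by GCGC.
Gria4: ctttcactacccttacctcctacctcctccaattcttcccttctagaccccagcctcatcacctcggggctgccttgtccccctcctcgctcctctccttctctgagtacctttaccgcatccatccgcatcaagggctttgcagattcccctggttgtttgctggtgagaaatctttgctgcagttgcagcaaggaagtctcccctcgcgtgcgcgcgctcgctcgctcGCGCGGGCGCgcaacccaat
The palindrome reads the same on both strands. This window held 1 match to it, which 4.98% of 32851 windows of the same length hold, and none to the GC box GGGCGG on either strand, which 32.7% hold. A match of letters is a description and shows no binding.

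The other subunits differed less between the genotypes. *Gria2*, the subunit that sets calcium permeability, read 11.57, 11.63 and 11.62 in cKO cerebella, against 11.69, 11.45 and 11.86 in controls, and the cKO arrays lay inside the spread of the controls. Its log2 change was -0.06 with a 95% interval of -0.29 to 0.16. *Gria1* differed by -0.03 with an interval of -0.23 to 0.17, *Gria3* by -0.11 with an interval of -0.63 to 0.42, and *Grin2b* by -0.16 with an interval of -0.50 to 0.18. *Grin2a* differed by -0.05 with an interval of -0.47 to 0.37, and *Grin3a* by 0.10 with an interval of -0.22 to 0.41. The intervals were widest for *Gria3*, with its 1 low array in each genotype.

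**Figure D2:**
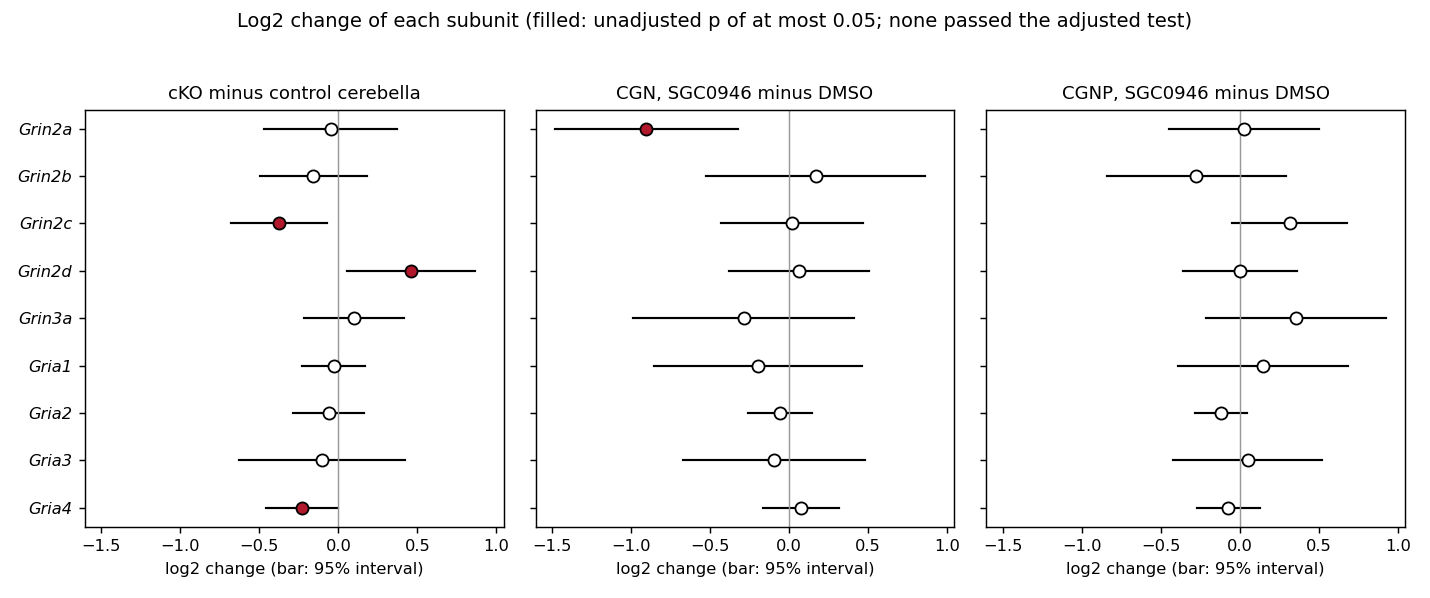
Log2 change of each subunit with its 95% interval from limma in cKO against control cerebella, and with SGC0946 against DMSO in CGN and in CGNP. Filled points reached an unadjusted p of at most 0.05: *Grin2c*, *Grin2d* and *Gria4* in cerebella, *Grin2a* at -0.90 in CGN, and none in CGNP.

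Cell type markers moved in the same cerebella. Over all genes, 4.6% were lower and 4.09% higher at the cut-off. Markers of granule progenitors and dividing cells were lower at the cut-off for 6 of 9 genes, with a list median of -0.36. Their summed linear signal was 7904 to 8725 in cKO against 10315 to 10894 in control cerebella. *Atoh1* (-0.79) had the largest change of the list. In the study's notation the genotypes also differ at *Atoh1* itself, and the part of this in its level was not tested. Markers of GABAergic interneurons and unipolar brush cells were higher for 5 of 8 genes, such as *Pax2* with 1.14 and *Slc6a5* with 0.70, and summed to 2097 to 2895 in cKO against 1298 to 1796 in controls. Microglial markers were higher for 3 of 7 genes, summing to 1132 to 1458 in cKO against 890.0 to 1025 in controls. None of 9 markers of mature granule neurons and 1 of 7 Purkinje cell markers (*Pvalb*, 0.51) reached the cut-off, and 1 of 9 astroglial, 2 of 8 oligodendrocyte and 1 of 8 vessel markers were higher. The part of these shifts in the *Grin2d*, *Grin2c* and *Gria4* values was not tested.

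With SGC0946 for 44 h in CGN, *Grin2a* was the one subunit at the cut-off, and it was lower. The gene is annotated at chr16:9567901-9996083 (GRCm38.p6). It read 5.56 and 6.02 with SGC0946, against 7.05 and 6.33 with DMSO. Both treated cultures were below both DMSO cultures, and the DMSO cultures differed more from each other than the treated ones did. The log2 change was -0.90 with an SE of 0.27, a 1.87-fold difference with a 95% interval of -1.48 to -0.32 on the log2 scale (limma, adjusted p = 0.330). No subunit passed the adjusted test, which 34 of 22180 genes did (0.153%), and 1 of 9 at the cut-off, in the lower direction, compares with 7.48% of all genes and 4.08% of all genes lower. Groups of 2 did not overlap for 34.1% of all genes.

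The *Grin2a* call depended on single cultures. Its change was -0.54 without CGN DMSO replicate 1 and -0.67 without CGN SGC0946 replicate 1. It was -1.03 when the 2 arrays with contradicting labels were grouped by their titles and -0.18 when they were grouped by their descriptions. It missed the cut-off without either of these cultures and by the descriptions, and reached it by the titles. The readings of 5.56 and 6.02 with SGC0946 carry labels of 5 and 7 days in vitro, against 2 and 4 days for those of 7.05 and 6.33 with DMSO.

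**Figure D3:**
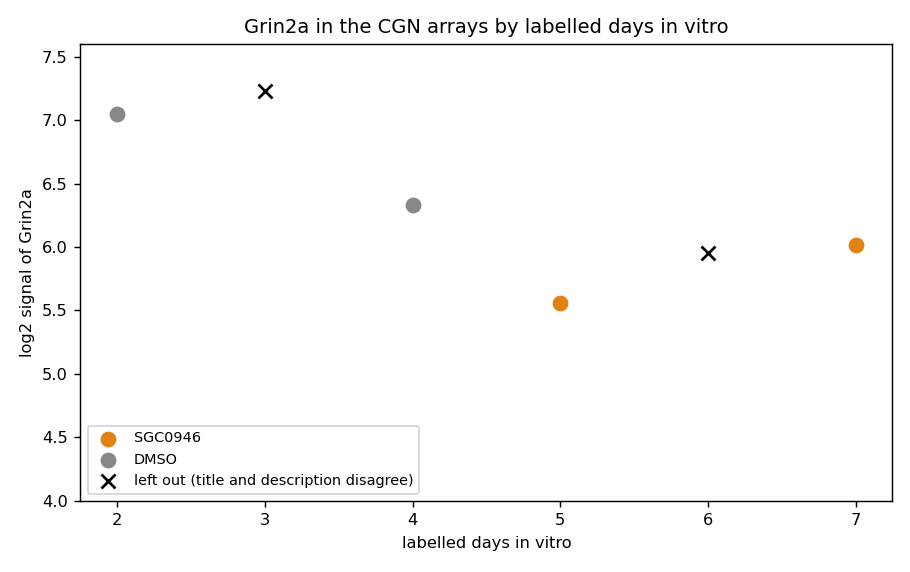
Log2 signal of *Grin2a* in the 6 CGN arrays against the days in vitro given in the labels, with SGC0946 and DMSO cultures as circles and the 2 arrays left out of all comparisons as crosses. The SGC0946 cultures, at 5.56 and 6.02, carry later days than the DMSO cultures, at 7.05 and 6.33.

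The remaining subunits in CGN had intervals that included 0. *Grin2b* read 9.12 and 8.73 with SGC0946, against 8.77 and 8.74 with DMSO, a change of 0.17 with a 95% interval of -0.53 to 0.86. *Gria2* read 11.75 and 11.64 with SGC0946, against 11.82 and 11.68 with DMSO, a change of -0.06 with an interval of -0.26 to 0.15. For these principal granule cell subunits the treated and DMSO cultures overlapped. *Gria4* differed by 0.08 with an interval of -0.16 to 0.32, *Gria3* by -0.09 with an interval of -0.67 to 0.48, *Gria1* by -0.19 with an interval of -0.85 to 0.46, and *Grin3a* by -0.29 with an interval of -0.99 to 0.41. *Grin2c* and *Grin2d* differed by 0.02 and 0.06, with intervals of -0.43 to 0.47 and -0.38 to 0.50.

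Markers of other cells also differed between these CGN cultures. Over all genes, 4.08% were lower and 3.39% higher at the cut-off, and arrays did not overlap between treatments for 34.1%. Oligodendrocyte lineage markers were lower at the cut-off for 4 of 8 genes, with *Olig2* at -0.82, and summed to 1065 to 1090 with SGC0946 against 1402 to 1749 with DMSO. Vessel and meningeal markers were lower for 4 of 8 genes, and summed to 616.0 to 918 with SGC0946 against 934 to 1311 with DMSO. Of 9 markers of mature granule neurons, *Slc17a7*, the vesicular glutamate transporter, was lower (-0.61) and *Etv1* (-0.53), while *Ccnd2* and *Mycn* were the 2 of 9 progenitor markers that were higher. *Pax2* was the 1 of 8 interneuron and unipolar brush cell markers at the cut-off, with -0.70, *Gfap* was lower and *Hopx* higher among 9 astroglial markers, and no Purkinje cell or microglial marker reached it. *Dot1l* read 8.25 and 8.06 with SGC0946, against 8.72 and 8.54 with DMSO. The part of these shifts in the *Grin2a* value was not tested.

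With SGC0946 for 4 h in CGNP, 0 of 9 subunits reached either threshold in limma, where 7 genes (0.0316%) passed the adjusted test and 905 genes (4.08%) reached the unadjusted cut-off. *Grin3a*, the subunit typical of young tissue, read 5.15, 5.56 and 5.84 with SGC0946, against 5.43, 5.38 and 4.67 with DMSO. The treatments overlapped, and the change of 0.36 had a 95% interval of -0.22 to 0.93. *Grin2c* read 4.90, 4.87 and 5.18 with SGC0946, against 4.96, 4.51 and 4.54 with DMSO, a change of 0.32 with an interval of -0.05 to 0.68. The DMSO culture of pooled mice overlapped with the treated ones. *Grin2b* differed by -0.28 with an interval of -0.84 to 0.29, *Gria1* by 0.15 with an interval of -0.39 to 0.68, and *Gria2* by -0.12 with an interval of -0.28 to 0.05. *Gria3* differed by 0.05 (-0.42 to 0.52), *Gria4* by -0.07 (-0.27 to 0.13), *Grin2a* by 0.03 (-0.45 to 0.50) and *Grin2d* by 0.00 (-0.36 to 0.36). No marker of any cell type reached the cut-off in this comparison.

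Leaving out pooled CGNP cultures changed 2 calls. Without the pooled DMSO culture *Grin2c* reached the cut-off and was higher by 0.46, without the pooled culture in both treatments it did so by 0.50, and without the pooled SGC0946 culture *Gria2* reached it and was lower (-0.19). Without the pooled culture in both treatments *Gria2* missed it (-0.17).

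In CGN against CGNP, both with DMSO, *Grin2a*, *Grin2b*, *Gria2* and *Gria3* read higher without overlap, whichever scaling was used, and these 4 of 9 compare with 13.3% of all genes as deposited and 5 of 9, *Gria4* included, with 26.7% after joint normalization. Lower without overlap were 2 of 9 as deposited, where 51.3% of all genes were, and 0 of 9 after joint normalization, where 29% were. This comparison was not tested, because the values appear to have been normalized within each experiment, and it is given as deposited and after joint quantile normalization of the 16 arrays. CGN and CGNP also differed in medium (serum against SHH), hours with DMSO (44 against 4) and labelled days in vitro. Joint normalization does not separate these from cell type. The median of all genes was -0.23 as deposited and -0.02 after joint quantile normalization. *Grin2a* read 7.05 and 6.33 in CGN, against 4.37, 4.15 and 4.58 in CGNP, a difference of 2.32 as deposited and 2.79 after joint normalization. All CGNP arrays were below the array median and both CGN arrays above it, so that the size of these differences from a dim signal is uncertain. *Gria3* read 8.46 and 9.01 in CGN, against 6.75, 7.32 and 7.07 in CGNP, a difference of 1.69, and of 2.06 after joint normalization.

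*Grin2b* also stood apart, with 8.77 and 8.74 in CGN against 7.997, 7.90 and 7.63 in CGNP, a difference of 0.91 as deposited and 1.35 after joint normalization. *Gria2* differed by 0.54 and 1.09 on these scales, without overlap on either. *Gria4* overlapped as deposited, with a difference of 0.16, and stood apart at 0.73 after joint normalization. *Gria1* went the other way, with 6.27 and 7.01 in CGN against 7.65, 8.08 and 7.39 in CGNP, a difference of -1.07 as deposited, whereas at -0.60 after joint normalization its arrays overlapped. *Grin2d* was lower (-0.37), overlapping after joint normalization at -0.33, and *Grin2c* and *Grin3a* overlapped on both scales. In all, 2 of 9 subunits were at least 2-fold higher without overlap as deposited, where 2.75% of all genes were, and 4 of 9 after joint normalization, where 5.11% were. At least 2-fold lower were 1 of 9 as deposited, against 11.2% of all genes, and 0 of 9 after joint normalization, against 4.41%. Summed Purkinje cell markers were 1159 to 1971 in CGN with DMSO and 285 to 375 in CGNP with DMSO. Of 7, *Calb1* and *Car8* (9.17 in CGN and 6.94 in CGNP) were at least 2-fold higher without overlap, and these 2 make up most of the sum. The rest were dim in both: *Foxp2* averaged 5.20 in CGN and 4.58 in CGNP, *Pvalb* 4.94 and 4.90, *Rgs8* 4.77 and 4.55, *Ppp1r17* 4.37 and 4.23, and *Skor2* 3.88 and 4.00. The sums of oligodendrocyte markers, 1402 to 1749 in CGN and 1122 to 1265 in CGNP, and of vessel markers, 934 to 1311 and 759 to 868, also stood apart. Single genes of both lists went either way as deposited, where 13.3% of all genes were higher and 51.3% lower without overlap. Of 8 oligodendrocyte markers 4 were higher and 3 lower without overlap, *Mag* (5.41 in CGN and 6.805 in CGNP) and *Mbp* (6.21 and 7.43) among the lower. Of 8 vessel markers 4 were higher and 1 lower, *Acta2* (7.50 and 8.49). The part of these markers in the subunit values was not tested.

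**Figure D4:**
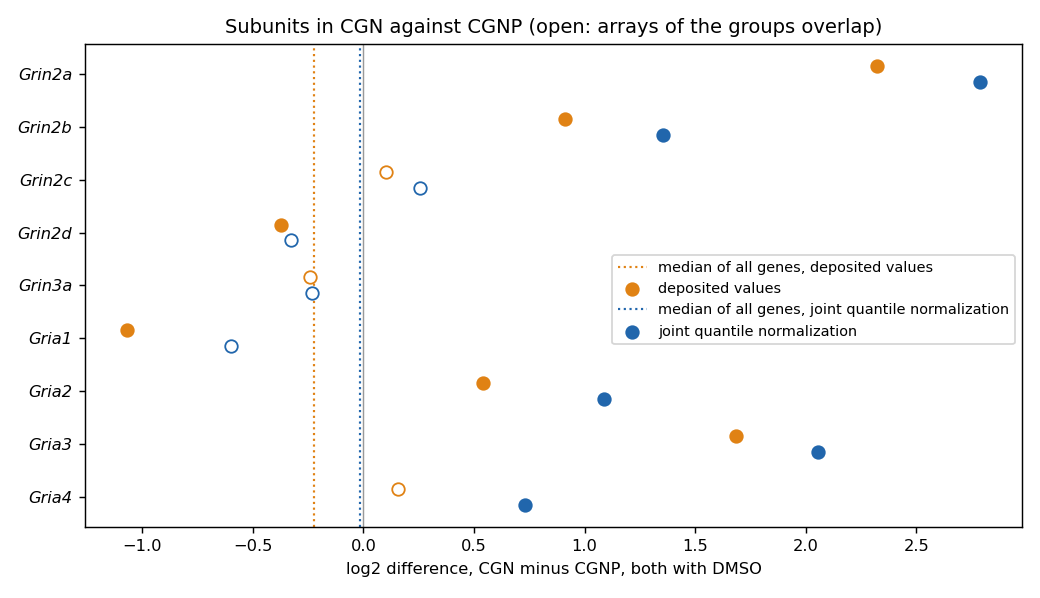
Log2 difference of each subunit, CGN minus CGNP with DMSO, as deposited (orange) and jointly quantile normalized (blue), with open points where the arrays of the groups overlap and dotted lines at the median of all genes. *Grin2a*, *Grin2b*, *Gria2* and *Gria3* are to the right on both scales, and *Gria1* is to the left, at -1.07 and -0.60.

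Control cerebella and DMSO cultures differed in strain, age and cell composition at once, so these values are a description. As deposited, *Gria1* was 2.84 higher in control cerebella than in CGNP and 3.91 higher than in CGN, *Grin3a* 3.00 and 3.24 higher, and *Grin2d* 2.17 and 2.55 higher. After joint normalization these differences were 2.65 and 3.25 for *Gria1*, 2.37 and 2.60 for *Grin3a*, and 1.55 and 1.87 for *Grin2d*, and none of the 3 genes overlapped on either scale. Against CGNP, 4 of 9 subunits were at least 2-fold higher without overlap on both scales, where 13.3% of all genes were as deposited and 7.76% after joint normalization. Against CGN, 3 of 9 were on both scales, where 21.9% of all genes were as deposited and 7.35% after joint normalization. *Gria3* was 2.51 higher in control cerebella than in CGNP and 0.83 higher than in CGN, and overlapped with CGN after joint normalization. *Grin2a* was the one subunit lower in control cerebella than in CGN by at least 2-fold without overlap, with -1.74 as deposited and -2.44 after joint normalization, where 1.6% and 6.97% of all genes were. *Grin2b*, *Gria2* and *Gria4* overlapped between control cerebella and CGN as deposited, and after joint normalization were lower in control cerebella without overlap, with differences of -0.79, -0.57 and -0.66.

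Over the 16 arrays, *Grin3a* correlated with *Gria1* at r = 0.98 and with *Grin2d* at r = 0.97, and *Gria1* with *Grin2d* at r = 0.96. *Grin2a* correlated with *Grin3a* at r = -0.24 and with *Gria1* at r = -0.39. The genes most like *Grin3a* were *Nlgn1* (r = 0.991), a synaptic adhesion protein, *Rbms3*, *Dock1*, *Pou3f4* and *Cacng4*, an auxiliary subunit of AMPA receptors. The genes most like *Gria1* were *Spns2* (r = 0.994), *Zwilch*, *Ncapd2*, *Acadl* and *Mcc*. The arrays share their experiment and its normalization, and these correlations mainly describe cerebella against cultures.

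**Figure D5:**
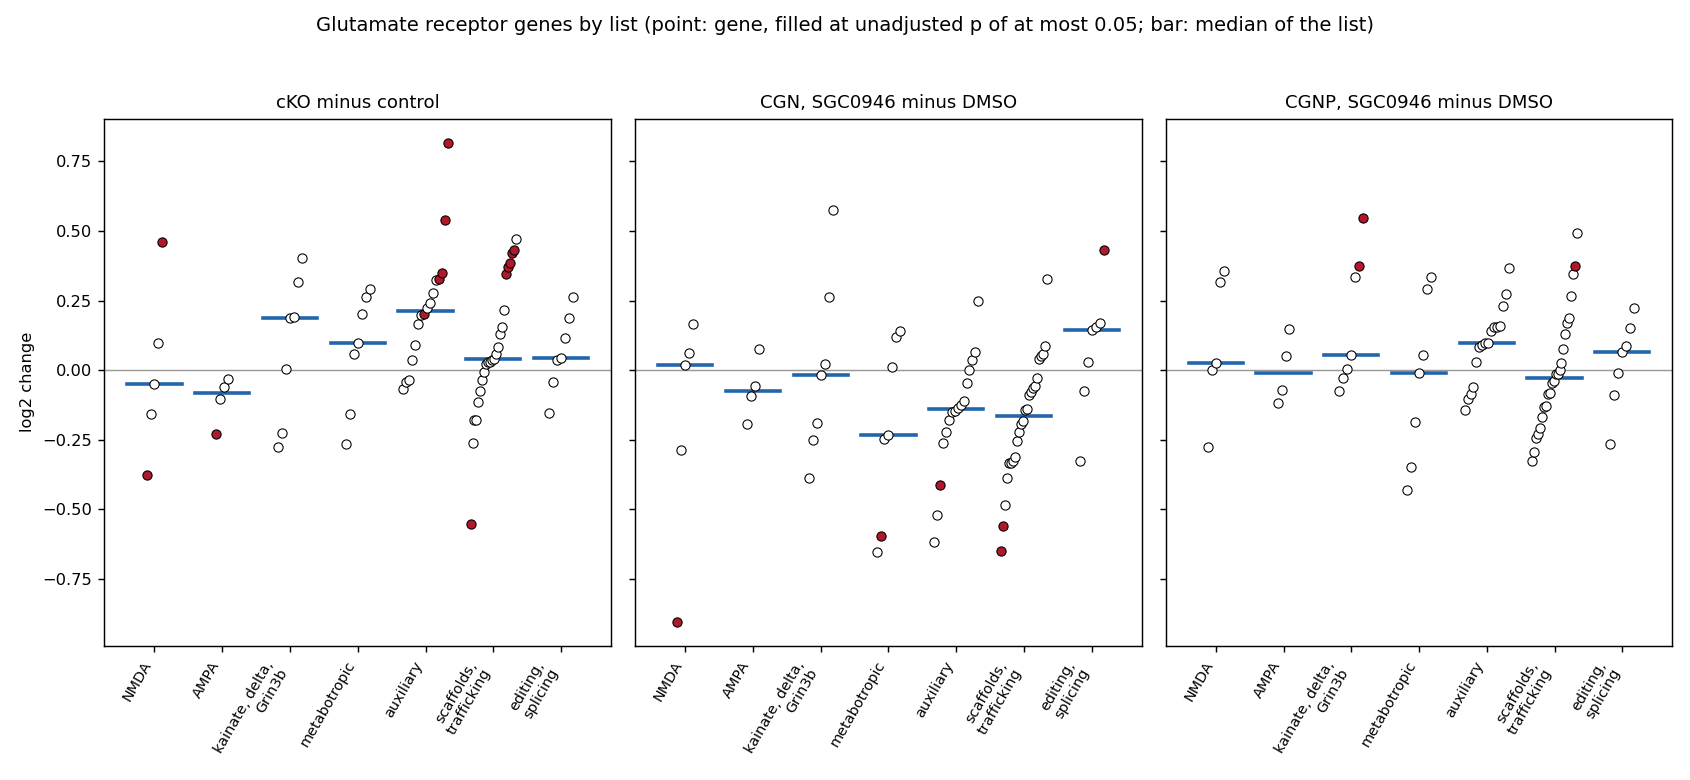
Log2 change of every measured gene of 7 lists of glutamate receptor genes in the 3 comparisons, with the median of each list as a bar and points filled at an unadjusted p of at most 0.05. Of auxiliary subunits 5 are filled and higher in cKO cerebella, and 1 is filled and lower in CGN.

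The partners of the receptors were read in the same way. In cKO against control cerebella, 5 of 16 auxiliary subunits, which govern trafficking and gating of ionotropic receptors, were higher at the cut-off and none was lower, where 4.09% of all genes were higher and 4.6% lower. *Shisa7* read 6.85, 7.64 and 7.78 in cKO cerebella, against 6.45, 7.12 and 6.25 in controls, with overlapping arrays and a log2 change of 0.82 (limma, adjusted p = 0.462). *Cacng3*, a transmembrane AMPA receptor regulatory protein, read 8.83, 9.15 and 9.68 in cKO cerebella, against 8.57, 8.70 and 8.78 in controls, a change of 0.54 without overlap. *Cacng5* and *Shisa9* differed by 0.35 and 0.33 with overlapping arrays, and *Cnih2*, a chaperone of AMPA receptors, by 0.20 without overlap. Of all genes, 14% had arrays that did not overlap between the genotypes. The median of the list was 0.21, and that of all genes -0.01.

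Of 24 scaffold and trafficking genes, 5 were higher and 1 was lower at the cut-off in cKO cerebella, with a list median of 0.04. Over all genes, 4.09% were higher and 4.6% lower. The 3 Shank scaffolds of the postsynaptic density were among those higher, *Shank1* by 0.38, *Shank2* by 0.43 and *Shank3* by 0.42, each without overlap. *Dlg4*, which encodes PSD-95, differed by 0.37 with overlapping arrays, and *Dlgap1* by 0.35 without. Arrays did not overlap between the genotypes for 14% of all genes. *Homer1*, which links metabotropic receptors to calcium stores, was lower, with 7.97, 7.41 and 7.92 in cKO cerebella against 8.37, 8.22 and 8.38 in controls, a change of -0.55 (limma, adjusted p = 0.403). None of 7 kainate and delta receptor genes with *Grin3b*, 7 metabotropic receptors and 7 editing and splicing factors reached the cut-off, at list medians of 0.19, 0.10 and 0.04. The marker shifts of the same cerebella stand beside these values too, and their part was not tested.

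In CGN with SGC0946, *Grm4*, a presynaptic metabotropic receptor of granule cells, was the 1 of 7 metabotropic genes at the cut-off. It read 5.47 and 6.08 with SGC0946, against 6.34 and 6.39 with DMSO, a change of -0.59 (limma, adjusted p = 0.574). Of 16 auxiliary subunits 1 was lower at the cut-off, *Cnih2* (-0.41). Of 24 scaffold and trafficking genes 2 were lower, *Dlgap1* (-0.65) and the synaptic adhesion gene *Lrrtm2* (-0.56). Over all genes, 4.08% were lower and 3.39% higher at the cut-off. The arrays of *Cnih2*, *Dlgap1* and *Lrrtm2* did not overlap between treatments, as for 34.1% of all genes. The list median was -0.14 for auxiliary subunits and -0.16 for scaffold and trafficking genes, where that of all genes was -0.01. *Nova1*, a splicing factor of neuronal transcripts, was the 1 of 7 editing and splicing genes at the cut-off, with 11.31 and 11.41 with SGC0946 against 10.96 and 10.90 with DMSO. Its change of 0.43 did not pass the adjusted test (limma, adjusted p = 0.0511). Labelled days in vitro and treatment cannot be told apart in these CGN arrays. The part of their marker shifts in these values was not tested.

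In CGNP with SGC0946, 2 of 7 kainate and delta receptor genes with *Grin3b* were higher at the cut-off. They were the delta receptor *Grid1* (0.55) and the kainate receptor subunit *Grik4* (0.37). Of 24 scaffold and trafficking genes 1 was higher, the scaffold *Grip2* (0.37), where 2.25% of all genes were. None of them passed the adjusted test. *Grik4* had arrays that did not overlap, with 5.05, 5.15 and 4.75 with SGC0946 against 4.72, 4.55 and 4.56 with DMSO. No auxiliary subunit, metabotropic receptor or editing and splicing gene reached it.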

How the data were processed

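The authors used Partek, correcting probes for sequence and GC content and background by RMA, then quantile normalizing and summarizing by median polish, and deposited log2 signals per transcript cluster. For Partek, the version is not stated in these sources. The distributions differ between experiments as after normalization within each. The deposited comparison tables hold p-values, q-values and fold changes of the authors and were not used. The platform annotation named a single gene for 23521 of 34472 clusters, several for 1820 and none for 9131, and the brightest single-symbol cluster stood for each of 22180 genes, without a filter on dim genes.

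Groups came from the sample labels. limma 3.58.1 in R 4.3.3 (lmFit, eBayes with an intensity trend) was fitted to the 6 cerebella, to the 10 culture arrays, and, for differences between responses, to all 16 arrays, with Benjamini-Hochberg adjustment over all genes. The CGNP cultures share mice by their labels, and for the other groups the labels do not say whether all arrays are separate animals. The p-values therefore measure the spread between arrays, and the number of arrays limits the precision. In CGNP the culture paired the treatments through shared mice in the labels, although deviations within a culture correlated at only 0.01 to 0.04 across genes. The fit was tested on simulated data.

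The subunits and gene lists were chosen with earlier results of these data known. Named were all subunits, up to 4 genes per list and comparison with the largest change at the cut-off (and further members of the same list where a count was spelled out), any past the adjusted test, and the 5 genes most correlated with the widest-ranging subunit of each class. Scaling, dim filter, cluster choice, variance model, pairing, array sets and leaving out each array were varied.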

Additional observations from a re-analysis of the deposited data

Results flagged for a closer look

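For the 9 subunits, 27 differences between responses were tested in limma, 3 of them reached an unadjusted p of at most 0.05 and 0 passed the adjusted test. The response of *Grin2a* to SGC0946 was -0.90 in CGN and 0.03 in CGNP, a difference of -0.93 on the log2 scale (limma, adjusted p = 0.850), where 5.46% of all genes reached the cut-off. The change of *Grin2a* in cKO cerebella exceeded that in CGN by 0.85 (limma, adjusted p = 0.407), where 9.86% of all genes reached the cut-off. Both rest on the same 4 CGN arrays, in which labelled days in vitro and treatment cannot be told apart. The change of *Grin2c* in cKO cerebella minus that in CGNP was -0.69 (limma, adjusted p = 0.529), where 6.49% of all genes reached the cut-off, at a signal near the array median. No group held enough arrays for a check of single outlying arrays.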

How the results depend on the processing

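In the 3 tested comparisons no subunit at the cut-off turned direction under any alternative, and the arrays whose removal ended or made a call are given beside each result. *Grin2d* and *Gria4* also missed the cut-off with ordinary variance, and *Gria4* without the intensity trend. In cKO against control cerebella, the number of genes past the adjusted test was 3 without the intensity trend, 0 with ordinary variance and 1 to 12 on leaving out 1 array, against 5. The genes at the unadjusted cut-off were 1280 among genes above the median signal, and the subunits there were 1 with all clusters averaged, 1 with ordinary variance and 1 to 3 on leaving out 1 array, against 3.

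In CGN, the genes past the adjusted test were 0 in a fit of the 4 CGN arrays alone, 0 with ordinary variance, 61 among genes above the median signal, and 12 to 257 on leaving out 1 array, against 34. They were 134 with the arrays of contradicting labels grouped by title and 0 grouped by description. The genes at the unadjusted cut-off were 782 by description, 1032 among genes above the median signal and 1298 to 2894 on leaving out 1 array, and the subunits there were 0 by description and 0 to 1 on leaving out 1 array.

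In CGNP, the genes past the adjusted test were 16 in a fit of the 6 CGNP arrays alone, 13 among genes above the median signal, 11 after joint quantile normalization, 1 without the intensity trend, 0 with ordinary variance, 0 without the pooled culture in both treatments and 0 to 7 on leaving out 1 array, against 7. At the unadjusted cut-off there were 396 genes among those above the median signal. The subunits there were 1 without the pooled culture and 0 to 1 on leaving out 1 array. With the culture as a replicate block 10 genes passed the adjusted test and 0 subunits reached the cut-off, and no other call changed. The causes of these differences were not tested. In the comparison of CGN with CGNP, joint normalization moved *Grin2b*, *Gria2* and *Gria4* by more than the spread between arrays, and averaging both clusters moved *Grin2b* to 0.52. Groups of 2 or 3 arrays limit how small a change could be seen, as does a signal near or below the array median for *Grin2c* in all groups, *Grin2a* in cerebella and CGNP, and *Grin2d* and *Grin3a* in the cultures.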

Other observations

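The 2 CGN arrays with contradicting labels were given no group. The array labelled with 3 days in vitro read 7.23 for *Grin2a*, 9.19 for *Grin2b*, 12.09 for *Gria2*, 9.04 for *Gria3* and 10.57 for *Gria4*. The array labelled with 6 days in vitro and P8 read 5.95 for *Grin2a*, 8.78 for *Grin2b*, 11.89 for *Gria2*, 8.39 for *Gria3* and 10.51 for *Gria4*. For *Gria1* they read 6.56 and 6.77, for *Grin3a* 4.47 and 4.52, for *Grin2d* 4.44 and 4.33, and for *Grin2c* 4.82 and 4.74. In *Gria2* and *Gria4* both arrays were above all 4 CGN arrays that were compared.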
